A study of Mus musculus with 28 samples.

Results

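The genes examined here are Ret, which encodes the receptor tyrosine kinase of the glial cell line-derived neurotrophic factor (GDNF) family, its ligand genes Gdnf, Nrtn and Artn, and its co-receptor genes Gfra1, Gfra2, Gfra3 and Gfra4. They are 8 of the 52636 genes in the deposited count table, and all 8 passed the filter on low counts, which left 19101 genes to be tested. Ret was chosen from its measured difference between stages in these same counts, so its levels between stages are given as a description and carry no test. The other 7 genes were taken by family name and were tested in the fit over all genes.

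RNAseq was measured from single first molar tooth germs of wild type C57BL/6JOlaHsd mice, with 1 tooth per library. The stages are called E13, E14 and E16, for teeth labelled E13.5, E14.5 and E16.5, and each has 7 teeth, from 7, 6 and 5 embryos. A second table, with estimated counts, holds the E13 and E16 teeth again, beside 6 teeth of E15. The paper names this strain for its bulk RNAseq and describes the mouse teeth of E13, E14 and E16, but not those of E15. No mutant or treatment enters, and E13, E14 and E16 share the strain, so their comparisons are between developmental stages of the normal tooth. In comparisons with E15, any difference in how the teeth were obtained or handled cannot be told apart from stage.

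The libraries had between 17814073 and 27115729 counted reads. The left tooth of embryo 3 at E16, named E16 tooth 1 below, had the lowest total and stood apart, with a median correlation of 0.949 to the other teeth of its stage, where every other tooth had at least 0.968 to those of its own. The 6 dental epithelium markers and the 6 dental mesenchyme markers were counted at each stage, and their levels moved with stage. Their presence alone does not establish that a piece of tissue was tooth only. Summed epithelial markers were 593 to 898 CPM (counts scaled to the normalized library size) at E13, 1040 to 1340 at E14 and 1460 to 2590 at E16, and summed mesenchymal markers were 2940 to 3140, 2510 to 2850 and 1020 to 1700. E16 tooth 1 was the lowest E16 tooth in both sums. In whole teeth, fewer cells of a type and less RNA per cell cannot be told apart, and the part of tissue composition in the differences below was not tested.

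Ret signals differently from most receptor kinases, because its ligands first bind a co-receptor anchored in the membrane by a lipid, and the pair then brings Ret molecules together. GDNF prefers GFRA1, neurturin (Nrtn) prefers GFRA2, artemin (Artn) prefers GFRA3, and persephin (Pspn) prefers GFRA4. The pathway is best known from the branching of the ureteric bud in the kidney and from the enteric, sympathetic and sensory neurons, and in teeth the ligands are known as trophic factors for the nerves that come to innervate the pulp.

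In the mouse genome (GRCm38), Ret (ENSMUSG00000030110) lies on the minus strand at chr6:118151745-118197718, and Gdnf (ENSMUSG00000022144) on the plus strand at chr15:7810846-7837575. Gfra1 lies on the minus strand at chr19:58235604-58455909, and Gfra2 on the plus strand at chr14:70890120-70979838. The levels below are sums over the exons of each gene. Gfra1 shares 416 exon bases with the antisense gene Gm16277, and since no strand setting is given for the counting, reads there cannot be told apart. The co-receptors descend from a common ancestor, and the coding sequences of Gfra1 and Gfra2 were 66.2% identical over 1319 aligned bases. Reads were 84 bases long, and no 84-base word of any of the 8 genes occurred in another of them. A full-length read of one of these genes could thus match another of them only with mismatches.

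Ret was the gene with the largest difference between stages among the 8, with a single high stage. At E13 the teeth had a lowest value of 0.829 CPM, a median of 2.77 and a highest of 4.14. At E14 they had 10.1, 12.6 and 15.5, and at E16 1.27, 1.96 and 4.05. Every E14 tooth was thus above every tooth of E13 and E16, while the E13 and E16 ranges overlapped almost in full. The fitted level at E14 was 5.1-fold that at E13, a log2 change of 2.35 (SE 0.30), and 4.95-fold that at E16 (log2 change from E14 to E16 of -2.31, SE 0.30). Between E13 and E16 the fitted difference was 0.04 on the log2 scale (SE 0.31). The counts behind these levels were 18 to 87 reads per tooth at E13, 251 to 361 at E14 and 27 to 105 at E16. Without E16 tooth 1 the change from E14 to E16 was -2.18 and that from E13 to E16 was 0.17. The 5 markers of the enamel knot, the signaling center of the cap stage, took mixed courses. Their summed level was 10.1 to 24.0 CPM at E13, 77.4 to 117 at E14 and 85.3 to 256 at E16, with most of it from Shh at E14 and E16. From E13 to E14, 4 of the 5 rose and 0 fell, where 11.3% and 8.47% of all tested genes did, and from E14 to E16, 2 rose and 2 fell, where 15% and 13.1% did. The 2 that fell were the growth factor genes Fgf4, with means of 0.48, 8.1 and 2.52 CPM at E13, E14 and E16, and Fgf20, with 0.473, 2.76 and 0.951. Of these 3 stages, both were highest at E14 as Ret was. At E15, in the estimated counts, Fgf4 had a median of 2.74 CPM (1.49 to 3.78) and Fgf20 of 3.48 (0.75 to 11.5). The estimated counts were normalized separately, so E15 was not tested against E14. Fgf4 and Fgf20 were singled out after their values were seen.

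**Figure D1:**
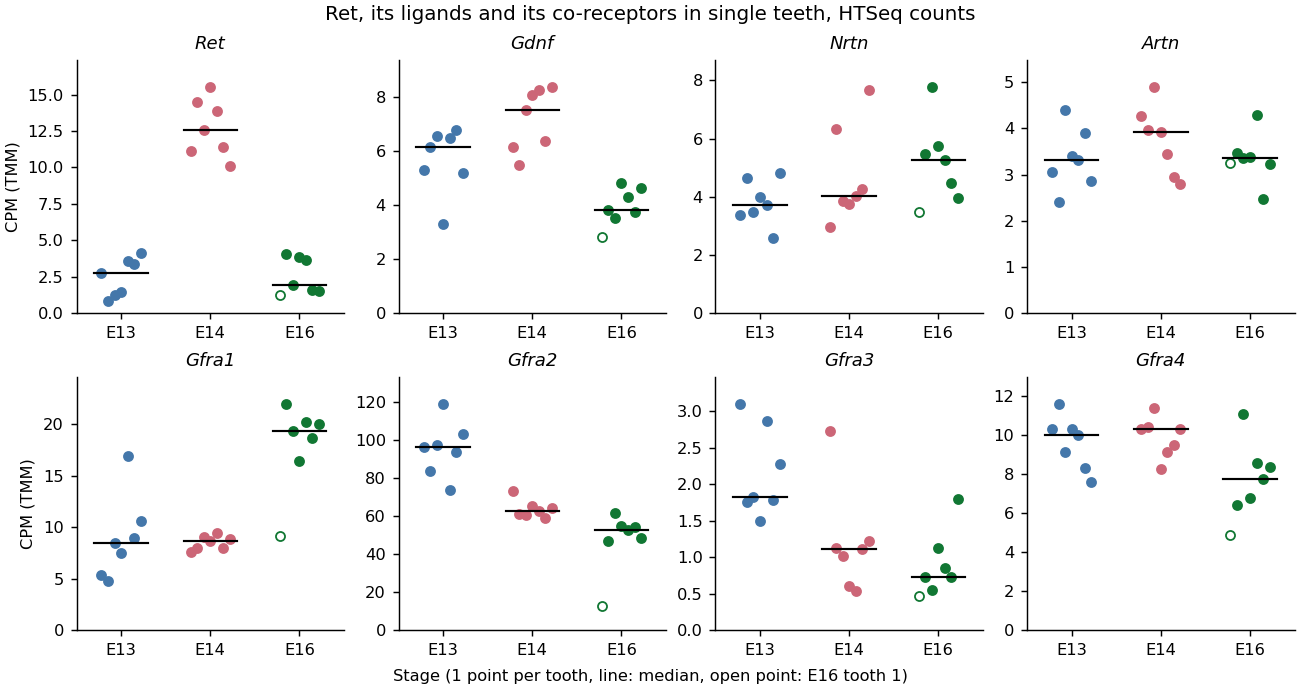
Levels of Ret, the ligand genes and the co-receptor genes in single teeth (y axis, CPM after TMM normalization, from 0) at E13, E14 and E16 (x axis, 7 teeth each). Points are teeth, lines are medians and the open point is E16 tooth 1. Ret lies between 10.1 and 15.5 at E14 and at or below 4.14 at the other stages, Gfra1 is highest at E16, and Gfra2 is highest at E13.

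Among the ligand genes, Gdnf fell after E14, and Nrtn and Artn had no change that passed the test in any of the 3 stages. Gdnf, the ligand that also guides the ureteric bud, had a lowest, median and highest level of 3.31, 6.17 and 6.79 CPM at E13, of 5.5, 7.54 and 8.38 at E14, and of 2.83, 3.85 and 4.82 at E16. Every E14 tooth was above every E16 tooth, whereas the E13 range overlapped both. From E14 to E16 Gdnf fell by 0.86 on the log2 scale (SE 0.16, adjusted p = 0.000156, edgeR), and the E16 level was also below that of E13 (log2 change -0.52, SE 0.16, adjusted p = 0.00937). The difference between E13 and E14 was 0.34 (SE 0.15, adjusted p = 0.129). Without E16 tooth 1 the fall after E14 was -0.77, with an adjusted p of 0.00025. In the estimated counts the change from E13 to E16 was -0.48 with an adjusted p of 0.0621, above the threshold of 0.05, so this call depended on the table.

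Nrtn, the preferred ligand of GFRA2, had medians of 3.73 CPM at E13, 4.04 at E14 and 5.25 at E16, with ranges of 2.59 to 4.83, 2.95 to 7.67 and 3.49 to 7.76 that all overlapped. Its E16 to E13 difference was 0.44 (SE 0.21, adjusted p = 0.0898), which became 0.53 with an adjusted p of 0.0327 without E16 tooth 1 and 0.53 with an adjusted p of 0.0455 in the estimated counts. Artn, the preferred ligand of GFRA3, stayed within 2.4 to 4.89 CPM in all 21 teeth, with medians of 3.32, 3.93 and 3.36, and its fitted differences between stages lay between -0.17 and 0.17 with adjusted p values of 0.48 or more.

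The co-receptor genes took different courses. Gfra1, which presents GDNF to Ret, rose between E14 and E16. It had a lowest, median and highest level of 4.75, 8.44 and 16.9 CPM at E13, of 7.58, 8.69 and 9.4 at E14, and of 9.19, 19.4 and 22.0 at E16. The log2 change from E14 to E16 was 1.08 (SE 0.21, adjusted p = 0.000301) and from E13 to E16 it was 1.01 (SE 0.21, adjusted p = 0.000353), or 2.11-fold and 2.01-fold. The lowest E16 value was that of E16 tooth 1, and the other 6 teeth began at 16.4, above every E14 tooth. Without it the changes were 1.21 and 1.14. The E13 value of 16.9 came from E13 tooth 5, in which skeletal muscle markers summed to 1170 CPM, where the other E13 teeth had 32.8 to 187. Without E13 tooth 5 the change from E13 to E16 was 1.26, and that from E13 to E14 turned from -0.07 to 0.17, with adjusted p values of 0.859 and 0.571; the part of muscle in Gfra1 was not tested.

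Gfra2, which presents neurturin, had the highest level of the 8 genes and fell with stage. Its lowest, median and highest levels were 73.6, 96.4 and 119 CPM at E13, 59.0, 62.8 and 73.1 at E14, and 12.9, 52.8 and 61.6 at E16. The E13 teeth were all above the E14 and E16 teeth, although the highest E14 tooth at 73.1 came close to the lowest E13 tooth at 73.6. The log2 change was -0.58 from E13 to E14 (SE 0.19, adjusted p = 0.0342) and -1.01 from E13 to E16 (SE 0.19, adjusted p = 0.000161), whereas that from E14 to E16 was -0.43 (SE 0.19, adjusted p = 0.1). The value of 12.9 was that of E16 tooth 1, and the other 6 lay between 46.7 and 61.6. Without E16 tooth 1 the standard error dropped from 0.19 to 0.08, and all 3 changes passed the test, at -0.58 (adjusted p = 5.33e-06), -0.83 (adjusted p = 1.21e-08) and -0.25 (adjusted p = 0.0252). With it, the change from E13 to E14 lost the call when any of 9 other teeth was left out, with adjusted p values of up to 0.0773.

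Gfra3, which presents artemin and is a gene of sensory and sympathetic neurons, was the weakest of the co-receptors at 10 to 76 reads per tooth. Its levels were 1.49, 1.83 and 3.1 CPM (lowest, median and highest) at E13, 0.541, 1.11 and 2.73 at E14, and 0.471, 0.732 and 1.8 at E16. It fell from E13 to E16 by 1.27 on the log2 scale (SE 0.33, adjusted p = 0.00354), with 1 E16 tooth inside the E13 range. The change from E13 to E14 was -0.86 (SE 0.33, adjusted p = 0.0666). It became -1.20 with an adjusted p of 0.00688 without E14 tooth 1, which had the value of 2.73 while the other E14 teeth had at most 1.22, and DESeq2 called it with all teeth (adjusted p = 0.0401).

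Gfra4, which presents persephin, had no change that passed the edgeR test with all teeth. Its medians were 10 CPM at E13, 10.3 at E14 and 7.77 at E16, with ranges of 7.6 to 11.6, 8.26 to 11.4 and 4.86 to 11.1. The change from E14 to E16 was -0.36 (SE 0.14, adjusted p = 0.0515), close to the threshold, and DESeq2 placed it on the other side with an adjusted p of 0.0433. The lowest value was again that of E16 tooth 1, without which the change was -0.26 (adjusted p = 0.103). Leaving out E16 tooth 3 or E14 tooth 4 instead gave calls, at -0.46 (adjusted p = 0.01) and -0.39 (adjusted p = 0.0499). From E13 to E16 the change was -0.32 (SE 0.14, adjusted p = 0.0653), and -0.22 without E16 tooth 1 (adjusted p = 0.137). It was called without E16 tooth 3 (-0.42, adjusted p = 0.0129) or without E13 tooth 7 (-0.36, adjusted p = 0.048).

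Of the 7 tested members, 0 rose and 1 fell from E13 to E14, where 11.3% and 8.47% of all tested genes rose and fell. From E14 to E16, 1 rose and 1 fell, against 15% and 13.1% of all genes, and from E13 to E16, 1 rose and 3 fell, against 21.6% and 19.6%. Their median log2 changes were 0.04, -0.36 and -0.32, beside -0.01, 0.00 and -0.01 over all genes tested. With so many genes called between these stages, a count among 7 says little about the family, and the members are described one by one for that reason.

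**Figure D2:**
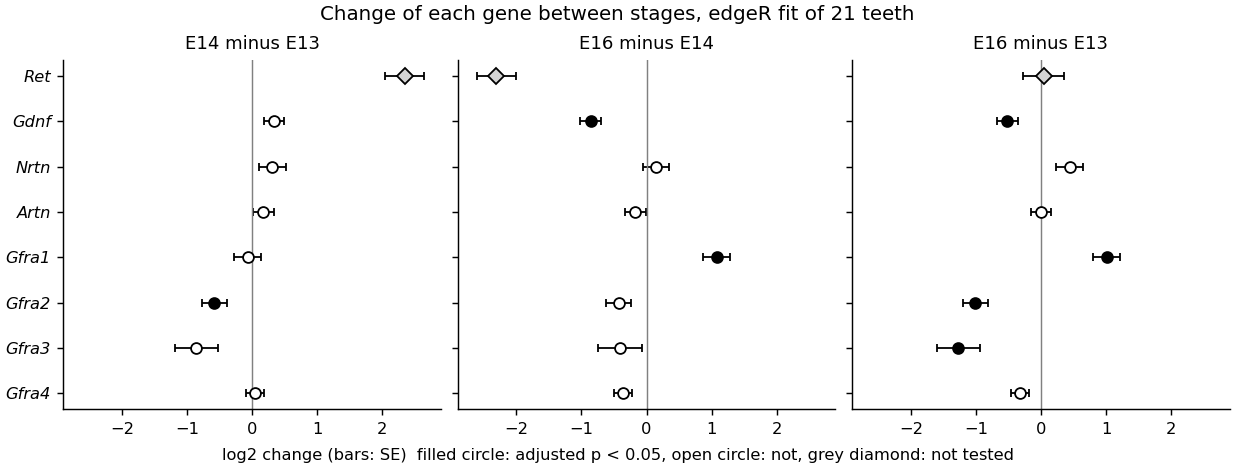
Log2 change of each gene between 2 stages (x axis) in the edgeR fit of 21 teeth, with the standard error as bars and 1 panel per comparison. Filled circles passed an adjusted p of 0.05, open circles did not, and the grey diamond is Ret, which was not tested. Ret is at 2.35, -2.31 and 0.04, and Gfra1 and Gfra2 lie on opposite sides of 0 from E13 to E16, at 1.01 and -1.01.

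Per exon length, the order of the genes changed with stage mainly through Ret and Gfra1. On the scale of CPM per kilobase (kb) of exon, Gfra2 was first at each stage, with medians of 27.2, 17.7 and 14.9, and at E13 and E14 its range did not meet that of the next gene. Ret was last at E13 with a median of 0.41 CPM per kb and last at E16 with 0.289, the latter within the range of Gfra3. At E14 it took the fifth place with 1.86 CPM per kb, next to Gdnf at 2.05 and Artn at 1.64, whose ranges overlapped its own. Gfra1 moved from the place before the last at E14, at 1.59 CPM per kb, to the fourth place at E16, at 3.54, where it overlapped Gfra4 at 3.59. Nrtn and Gfra4 came next after Gfra2 at each stage and overlapped each other. The range of Ret thus lay below those of all 4 co-receptor genes at E13, met that of Gfra3 alone among them at E16, and at E14 overlapped that of Gfra1.

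**Figure D3:**
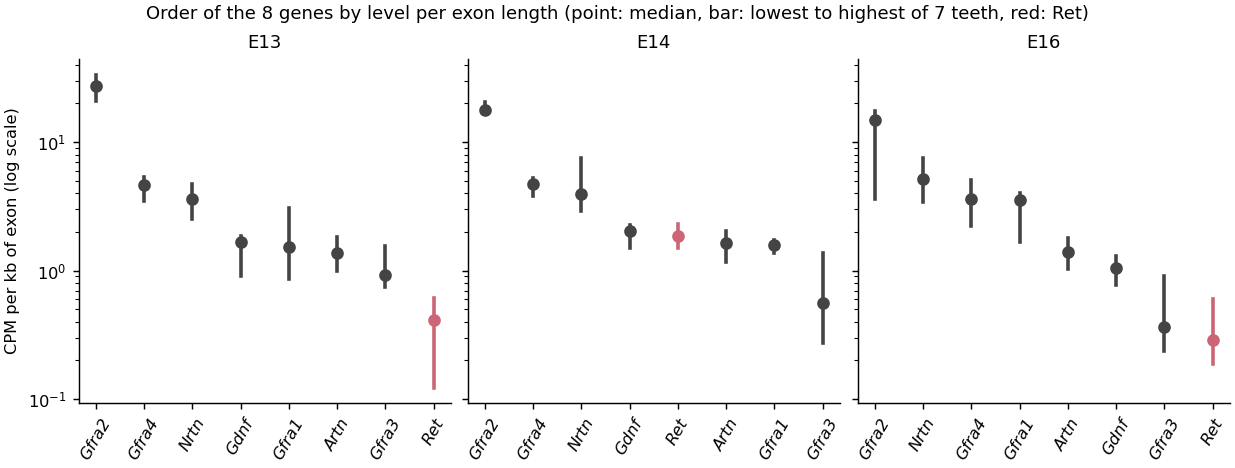
The 8 genes ordered by their median level per exon length at E13, E14 and E16 (y axis, CPM per kb of exon on a log scale). Points are medians, bars run from the lowest to the highest of 7 teeth, and Ret is in red. Ret is last at E13 and E16 and in the fifth place at E14, and Gfra2 is first at each stage.

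E15 lies between the high and the low stage of Ret, and is found only in the table of estimated counts, in which E14 is not held. Its levels were therefore compared with E13 and E16 within that table. Ret was at 1.47 CPM in the lowest E15 tooth, 2.74 in the median and 4.26 in the highest, and the ranges of E13 (0.926 to 4.42) and E16 (1.71 to 4.74) overlapped it almost in full. The fitted differences of E15 from E13 and of E16 from E15 were 0.05 and 0.06 (SE 0.37 each), so no E15 tooth showed the level that separated E14 from the other stages in the first table. The tables were normalized separately, so the E15 and E14 values were not tested against each other. The E15 teeth were labelled by age and the others by embryonic day, and a difference of batch cannot be told apart from that of stage.

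Gfra1 was already high at E15, with a median of 17.9 CPM, a highest value of 23.8 and a mean of 18.5 ± 3.53 (SD, n = 6), and rose from E13 by 0.85 (SE 0.23, adjusted p = 0.00818). Its difference between E15 and E16 was 0.18 (SE 0.23, adjusted p = 0.791). Gfra3 fell from E13 to E15 by 1.23 on the log2 scale (SE 0.42, adjusted p = 0.0312) at 8 to 49 reads per E15 tooth, and this call was lost when any of 6 teeth was left out. Gfra2 lay between its E13 and E16 levels, at 70.5 to 91.3 CPM, and neither step passed the test with all teeth (adjusted p = 0.149 and 0.113), while both did without E16 tooth 1, at -0.41 each (adjusted p = 0.00247 and 0.01). From E13 to E15, 1 of the 7 tested members rose and 1 fell, where 18.3% and 8.49% of 13447 genes did, and from E15 to E16 0 of 7 changed by edgeR, where 3.64% rose and 2.69% fell. At an unadjusted p below 0.05, 1 of the 7 (Gfra2) differed between E15 and E16, and DESeq2 also called 0 of 7.

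**Figure D4:**
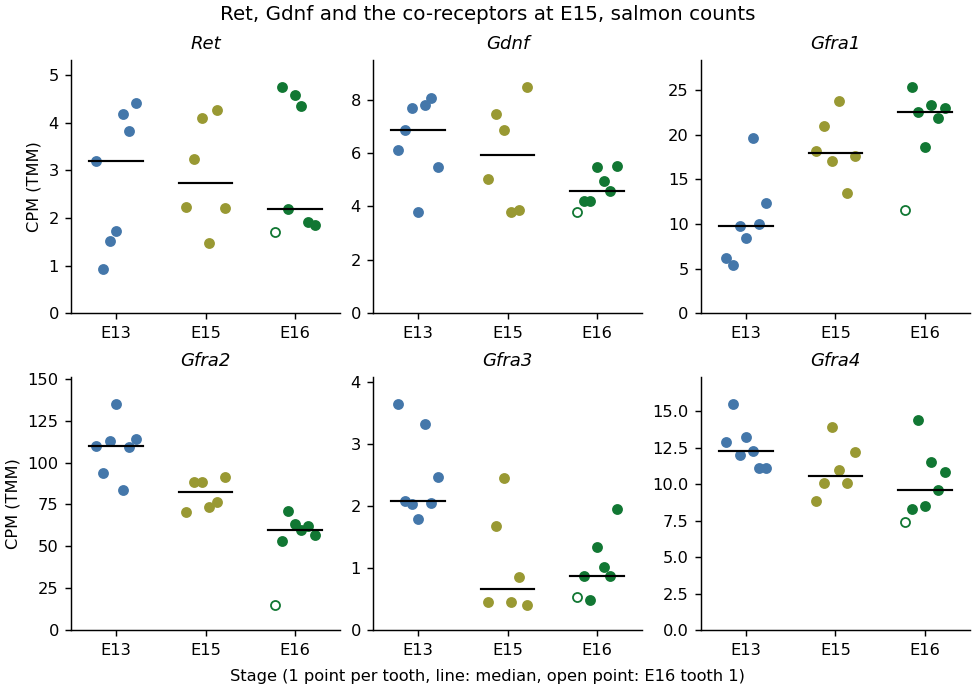
Levels of Ret, Gdnf and the 4 co-receptor genes at E13, E15 and E16 (x axis, 7, 6 and 7 teeth) in the table of estimated counts (y axis, CPM after TMM normalization, from 0). Points are teeth, lines are medians and the open point is E16 tooth 1. Ret lies between 0.926 and 4.74 in all 20 teeth, and Gfra1 is higher at E15 and E16 than in most E13 teeth.

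The side of the jaw was not used to choose any of the genes, so Ret was tested as well. Right teeth differed from left teeth by 0.07 on the log2 scale for Ret (SE 0.26, adjusted p = 1.0), and by -0.18 to 0.25 for the 8 genes. Called genes numbered 0 of 19101 (0%) by edgeR and 0 by DESeq2, while 306 had an unadjusted p below 0.05. In the embryos of which both teeth were sequenced, Ret was at 13.9 CPM on the right and 11.4 on the left in embryo 6 at E14. At E16 it was at 1.96 and 3.85 in embryo 6, and at 1.63 and 1.55 in embryo 8. Both teeth of embryo 6 at E16 lay within the range of the stage, near its middle and near its top. With the embryo as a block, over these 3 embryos and 6 teeth, the right to left difference of Ret was -0.17 (SE 0.28, adjusted p = 1.0), and edgeR called 0 of 19101 genes, with 292 at an unadjusted p below 0.05.

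The teeth of a stage agreed less in Ret than in most genes of its level. The edgeR fit gave a coefficient of variation between teeth of 37.1% for Ret, where the trend at its level was 23%. Gfra1 and Gfra2 were also above their trends, at 26.7% and 25.2% against 18.9% and 15.3%, the second with E16 tooth 1 in the fit. Gdnf and Artn lay below, at 18.8% and 18.5% against 23.4% and 27.7%. The spread of Ret was not the same at each stage, since the standard deviation over the mean was 52.3% at E13 and 47.6% at E16 but 15.6% at E14, and it was wide where the counts were low.

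At E13, the teeth with more Ret also had more Shh, the secreted signal of the dental epithelium and the enamel knot, which was singled out after its values were seen. Ret and Shh were at 0.829 and 0.967 CPM in E13 tooth 2, and at 4.14 and 8.98 in E13 tooth 7. Over the 7 embryos the Pearson correlation of log2 levels was 0.92 (exact permutation p = 0.000595, two-sided) and the Spearman correlation was 0.96 (exact permutation p = 0.00278). This was 1 of 34 relations, of Ret to 12 feedback genes and 5 enamel knot markers at E13 and E14, and the adjusted p values were 0.0202 and 0.0945. With the 2 embryos farthest from the median of Ret left out, r was 0.74. Etv5, a transcription factor induced by Ret in the kidney, had r = 0.87 (exact permutation p = 0.0147, adjusted p = 0.206) and a Spearman correlation of 0.93 (exact permutation p = 0.00675, adjusted p = 0.115), and r was 0.78 without those 2 embryos. At E14, over 6 embryos, Ret and Shh had r = 0.79 (exact permutation p = 0.0528, adjusted p = 0.206), which became 0.23 with the 2 farthest embryos left out. Leaving out the farthest embryos narrows the range of Ret and can lower r by itself, so the drop does not show on which embryos the relation rested. E16 has 5 embryos and was not examined in this way.

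The genes whose course over the 3 stages was nearest to that of Ret were found by the distance between stage means of log2 CPM, each centred on its own mean, among 14556 protein-coding genes. They were Pkhd1 (distance 0.0864), which encodes the ciliary protein of polycystic kidney disease, Nptx1 (0.121), a secreted pentraxin of synapses, and Amn (0.225), a partner of cubilin in uptake by kidney and gut epithelium. The homeobox gene Meox1 (0.281) and the immediate early gene Arc (0.319) followed. Nptx1 had means of 10.3, 52.2 and 10.4 CPM and Meox1 of 6.24, 25.7 and 6.29, both above Ret, whose means were 2.49, 12.7 and 2.57. The other genes were below Ret. Pkhd1 had means of 0.502, 2.63 and 0.474 CPM, Amn of 0.311, 1.68 and 0.366, and Arc of 0.966, 5.42 and 1.39, so their distances rest on few reads. Nearest to Gdnf were Vmn2r87, Tnfrsf21, Mycn, Rasd2 and Pnoc, at distances of 0.0218 to 0.0485. Mycn, the growth regulator, had means of 38.6, 49.1 and 29.2 CPM, and Gdnf of 5.69, 7.19 and 3.97. Rasd2 and Pnoc were low, with stage means of at most 0.6 and 0.982 CPM. Vmn2r87 belongs to a large family of near-identical receptor genes, and its counts are uncertain. These likenesses are over 3 points and are a description.

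Genes that act in the Ret pathway elsewhere were taken from a list of 67 genes, of which 54 passed the filter. Of these 54, 10 rose and 9 fell from E13 to E14, 8 rose and 17 fell from E14 to E16, and 13 rose and 12 fell from E13 to E16, with median changes of 0.02, -0.11 and 0.00. These are 18.5% and 16.7%, 14.8% and 31.5%, and 24.1% and 22.2%, where 11.3% and 8.47%, 15% and 13.1%, and 21.6% and 19.6% of all tested genes rose and fell. With the teeth of 1 embryo summed, 5 rose and 14 fell from E14 to E16. Without E16 tooth 1, 16 rose and 17 fell from E14 to E16, and 20 rose and 13 fell from E13 to E16.

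The feedback genes and targets known from the kidney mostly rose to E14 and fell after it, and some were above their E13 level at E16. All 12 passed the filter, and 7 rose and 0 fell from E13 to E14 (11.3% and 8.47% of all genes), with a median change of 0.43 beside -0.01 over all genes. From E14 to E16, 2 rose and 9 fell (15% and 13.1% of all genes), with a median of -0.56 beside 0.00. From E13 to E16, 5 rose and 0 fell (21.6% and 19.6% of all genes), with a median of 0.21 beside -0.01, where the difference of Ret was 0.04. These comparisons share the E14 teeth. Leaving out any 1 tooth gave 7 or 8 that rose and 0 that fell from E13 to E14, and 6 to 9 that fell from E14 to E16, and 6 fell there with the teeth of 1 embryo summed. Etv4, the partner of Etv5 in ureteric bud branching, had 10.4 ± 4.28 CPM at E13 (SD, n = 7), 73.5 ± 9.57 at E14 and 39.5 ± 6.86 at E16, with changes of 2.82 (SE 0.19, adjusted p = 1.01e-10) and -0.90 (SE 0.18, adjusted p = 0.000375). Etv5 rose by 1.11 (adjusted p = 0.000124) and then fell by 0.95 (adjusted p = 0.00039), and its difference between E13 and E16 was 0.17 (adjusted p = 0.508).

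Dusp6, a phosphatase that dampens ERK signaling, went from 70.2 to 127 CPM at E13 to 223 to 335 at E14 and 67.8 to 150 at E16, with changes of 1.40 (adjusted p = 8.75e-08) and -1.03 (adjusted p = 3.18e-06). Cxcr4, a chemokine receptor, rose by 2.25 (adjusted p = 4.75e-09) and fell by 0.94 (adjusted p = 0.000243). The Sprouty genes Spry1 and Spry4, which were singled out after their values were seen and encode inhibitors of receptor kinase signaling, rose by 0.50 and 0.91 (adjusted p = 0.011 and 0.000979), and both fell by 0.66 (adjusted p = 0.00067 and 0.00848). Met, the receptor of hepatocyte growth factor, and Myb, a transcription factor, took another course, rising from E14 to E16 by 0.94 and 1.23 (adjusted p = 3.1e-09 and 5.53e-10). At E15, in the estimated counts, Etv4, Etv5, Dusp6, Spry1, Spry4 and Cxcr4 had medians of 32.9, 71.9, 153, 72.4, 50.2 and 13.9 CPM. Their E13 medians in the first table were 10.3, 33.9, 98.3, 57.3, 40.2 and 3.93. Ret had medians of 2.74 at E15 and 2.77 at E13 on the same 2 scales. These were normalized separately, so the levels were not tested against each other. Many of the feedback genes also respond to fibroblast growth factor receptors, and the share of Ret in their course was not tested.

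**Figure D5:**
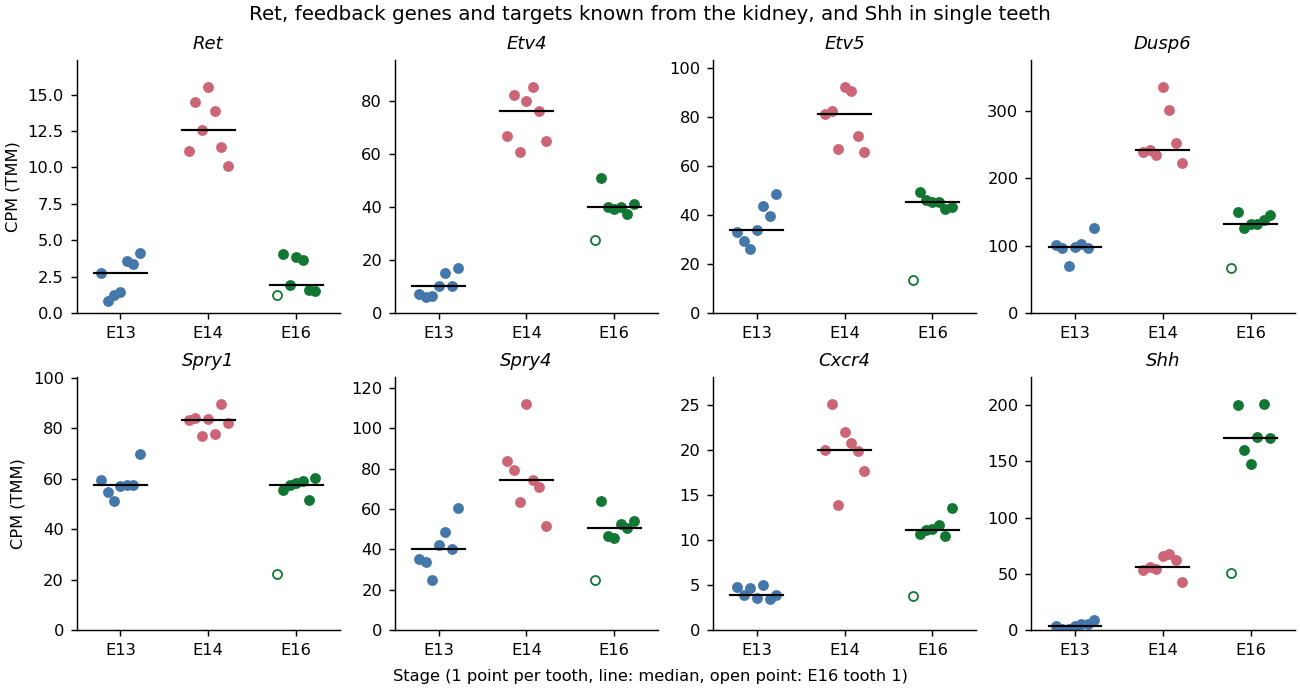
Levels of Ret, 6 feedback genes or targets known from the kidney, and Shh in single teeth (y axis, CPM after TMM normalization, from 0) at E13, E14 and E16 (x axis, 7 teeth each). Points are teeth, lines are medians and the open point is E16 tooth 1. Etv4, Etv5, Dusp6, Spry1, Spry4 and Cxcr4 have their highest median at E14, as Ret does, while Shh is highest at E16, with 51.1 CPM in E16 tooth 1 and at least 148 in the other 6.

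Among the other ligands, receptors and surface partners, 3 of 6 passed the filter. Pspn, the persephin gene, had at most 10 reads in any tooth, so Gfra4 was measured at 4.86 to 11.6 CPM in teeth in which the gene of its preferred ligand was near the limit of detection. Gfral had at most 1 read in any tooth, and its ligand gene Gdf15 at most 4. Gas1, a distant relative of the co-receptors that also binds hedgehog proteins, fell in both steps, from 192 ± 10.1 CPM (SD, n = 7) to 123 ± 13.4 and 85.0 ± 20.7, with changes of -0.64 (adjusted p = 0.000472) and -0.53 (adjusted p = 0.00194). Ncam1, a cell adhesion molecule that can serve as a receptor for GDNF, was the highest of the group at E16 with 42.5 CPM per kb and rose from E13 to E16 by 0.40 (adjusted p = 0.0245), a call lost with the teeth of 1 embryo summed (0.34, adjusted p = 0.0913) and without E16 tooth 4 (adjusted p = 0.0562).

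All 18 adaptors and kinases downstream of Ret passed the filter, and most of them had no change that passed the test, with 1, 2 and 1 that rose and 2, 3 and 4 that fell in the comparisons of E13 with E14, E14 with E16 and E13 with E16. Of all tested genes, 11.3%, 15% and 21.6% rose and 8.47%, 13.1% and 19.6% fell, so these counts are near the background. Over E13, E14 and E16, Dok5, a docking protein, had the reverse of the course of Ret. It had 6.05 ± 0.729 CPM at E13 (SD, n = 7), 2.76 ± 0.675 at E14 and 7.36 ± 1.0 at E16. Its changes were -1.13 (adjusted p = 4.25e-06) and 1.41 (adjusted p = 5.8e-08). At E15, in the separately normalized estimated counts, Dok5 was at 1.8 to 3.03 CPM, near its E14 range of 2.09 to 3.75, so the reversal did not extend to E15. Dok6 fell from E13 to E16 by 1.08 (adjusted p = 0.000332). Grb10, an adaptor that binds Ret and the insulin receptor, had the highest level of the group at E16 at 94.2 CPM per kb and fell by 0.55 from E14 to E16 (adjusted p = 0.00124). Of the 7 ubiquitin and trafficking regulators, the ubiquitin ligase gene Nedd4 was highest at 180 CPM per kb, with changes of -0.06 to -0.21 and adjusted p values of 0.155 or more.

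The transcription factors and signals that act on Ret in gut, nerve and kidney were mostly near 0, and 5 of 12 passed the filter. The kidney factors Pax2 and Pax8 had at most 7 and 6. Pax3, a factor of neural crest and muscle precursors, was at 0.875 to 18.8 CPM at E13 and at most 0.354 at E14, a change of -5.10 (SE 0.56, adjusted p = 3.44e-07), and at 0.222 to 1.71 at E16, a change from E14 of 1.77 (adjusted p = 0.0274). That call was lost with the teeth of 1 embryo summed (1.66, adjusted p = 0.0589) and without E14 tooth 5, E16 tooth 6 or E16 tooth 7 (adjusted p = 0.0525, 0.083 and 0.0522). Ednrb, the endothelin receptor of the enteric neural crest, was highest of the group at 4.53 CPM per kb at E16 and rose by 0.40 from E14 (adjusted p = 0.0275), a call lost with the teeth of 1 embryo summed (0.39, adjusted p = 0.0823) and without E14 tooth 1 (adjusted p = 0.0526).

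Of the regulators linked to Gdnf in the kidney, 9 of 12 passed the filter and 0 rose in any comparison, while 4, 4 and 5 fell, where 8.47%, 13.1% and 19.6% of all tested genes fell. The 3 Hox11 genes on the list had no read in any tooth. Eya1, a transcriptional coactivator, had 154 ± 11.3 CPM at E13 (SD, n = 7), 156 ± 17.6 at E14 and 65.5 ± 8.81 at E16, and fell from E14 to E16 by 1.25 on the log2 scale (adjusted p = 8.25e-11). Six2, a homeobox gene of kidney progenitors, fell over the same step by 1.15 (adjusted p = 3.83e-05), and was still the highest of the group at E16 at 51.2 CPM per kb. Foxc1, a forkhead factor that restricts Gdnf in the kidney, fell in both steps, by 0.84 and 1.30 (adjusted p = 0.00286 and 1.91e-05). The median change of the 9 genes was -0.32 from E13 to E14, -0.05 from E14 to E16 and -0.56 from E13 to E16. The fitted changes of Gdnf in these comparisons were 0.34, -0.86 and -0.52, so the 2 courses differed in both single steps. Of the 6 dental mesenchyme markers, 2, 4 and 5 fell and 0 rose.

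Nerve and glia are the tissues in which these genes are best known, and their markers were present at low levels and moved in both directions. The 12 neuron markers summed to 49.4 to 66.2 CPM at E13, 41.4 to 56.2 at E14 and 34.0 to 51.7 at E16, and the 9 Schwann and glia markers to 60.6 to 83.5, 62.5 to 91.3 and 71.7 to 116. All 12 and all 9 had a read at each stage. Of the neuron markers 8 passed the filter, and of these 2 rose and 3 fell from E13 to E14, 2 rose and 3 fell from E14 to E16, and 3 rose and 4 fell from E13 to E16. All 9 glia markers passed it, with 1 that rose and 1 that fell, 3 and 0, and 3 and 3 in the same comparisons. Over all tested genes 11.3% rose and 8.47% fell, 15% and 13.1%, and 21.6% and 19.6%. In the step in which Ret rose, from E13 to E14, the risers were the neuronal tubulin gene Tubb3 (1.56, adjusted p = 2.26e-06), the synaptic vesicle gene Syt1 (0.62, adjusted p = 0.00414) and the glial calcium-binding gene S100b (1.71, adjusted p = 3.42e-06), which were singled out after their values were seen. Gap43, a growth cone protein and the neuron marker with the highest level, fell from 21.2 ± 2.94 CPM at E13 (SD, n = 7) to 13 ± 0.958 at E14 (change -0.70, adjusted p = 0.0021). Erbb3, the neuregulin receptor of Schwann cells and epithelia, was the highest glial marker and rose from E14 to E16 by 0.40 (adjusted p = 0.0217). Sox10, the factor of neural crest and glia, was at 2.34 to 5.98 CPM at E13, 1.6 to 3.93 at E14 and 1.27 to 3.73 at E16, and fell from E13 to E16 by 0.83 on the log2 scale (adjusted p = 0.0208). The neuronal RNA-binding gene Elavl4 fell from E13 to E16 by 1.27 (adjusted p = 0.00307), the comparison in which Gfra2 and Gfra3 fell by 1.01 and 1.27, while the neuronal gene Stmn2 rose by 1.00 (adjusted p = 0.00189). The widest changes of neuron markers in that comparison, likewise singled out afterwards, were those of the neurofilament genes Nefl (-4.71, adjusted p = 1.02e-10) and Nefm (-3.20, adjusted p = 2.04e-07) and of the synaptic gene Snap25 (1.91, adjusted p = 1.98e-06). The part of nerve and glia in the changes of Gfra2 and Gfra3 was not tested.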

How the data were processed

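For the stages that the paper describes, tooth germs were dissected with little surrounding tissue, and libraries were sequenced on an Illumina NextSeq 500. For the first table the authors filtered reads of 84 bases (FastQC, AfterQC, Trimmomatic), mapped them to GRCm38 by STAR, and counted them on Ensembl release 90 genes by HTSeq. The deposited counts are whole numbers and were not normalized. The deposited estimated counts, of 14185 genes in whole numbers, carry the name of salmon, and their version, index and choice of genes are not given in the sources used here. The E15 right tooth of embryo 5 is not analysed here, and the column of 1 E13 tooth named with an X was taken as embryo 10.

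Groups, embryos and sides were taken from the labels. In R 4.3.3, edgeR 4.0.16 was fitted to all 21 teeth (quasi-likelihood test, stage as the factor, filterByExpr, TMM), and separately to the 20 teeth of the estimated counts, which kept 13447 genes. Adjusted p values are Benjamini-Hochberg over all genes tested, and changes below 0.05 are called. A side factor was added for the comparison of right and left. Levels are CPM on the TMM-scaled library size, and per kb of merged exons in the GENCODE annotation of GRCm38, which lacks 147 of the identifiers counted. The totals, of 17814073 to 27115729 counts, limit the precision of genes with few reads, such as Gfra3. Teeth of 1 embryo are not independent, and p values then measure partly the spread within an animal. The most alike 2 teeth of a stage differed by a chi-square of 7.21 per degree of freedom, so none was counted as a duplicate.

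The members and the lists were chosen with earlier results of these data known. Named are all members, pathway genes changed by at least 1 (log2) with a call in any stage comparison or highest per kb at E16 in their group, the 5 genes nearest to Ret and to Gdnf, and, of the neural markers, the highest of each list and Sox10, Elavl4 and Stmn2. Some genes that this rule names, and a sequence, are not reported here. On simulated data for E13 and E14, with 18807 genes, edgeR recovered 32.3%, 76.4% and 91.8% of genes changed by 0.5, 1 and 2 (log2), with 7 false calls. Alternatives were DESeq2 (version 1.42.0), RLE normalization, other filters, teeth of 1 embryo summed, side as a factor, the embryo as a block for side, the estimated counts, and each tooth left out. Sequences compared were taken from GENCODE transcripts of GRCm38.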

Additional observations from a re-analysis of the deposited data

Results flagged for a closer look

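In 32 groups of teeth (8 genes in 3 stages of the count table and at E15 of the estimated counts), a tooth far from the others of its group was looked for, and chance alone flags about 1 in 20 groups. There were 2. Gfra2 was at 12.9 CPM in E16 tooth 1, where the other 6 E16 teeth had 46.7 to 61.6, and this tooth also had the lowest total of counts. Gfra3 was at 2.73 CPM in E14 tooth 1, where the other 6 E14 teeth had 0.541 to 1.22. The neuron and glia markers of E14 tooth 1 summed to 51.9 and 71.6 CPM, within the ranges of the stage.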

How the results depend on the processing

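Of 232 values of the members under alternatives other than leaving out a tooth, 221 kept their direction and their side of the threshold. With DESeq2, Gfra3 from E13 to E14 and Gfra4 from E14 to E16 passed it. With the teeth of 1 embryo summed, Gfra2 from E13 to E14 no longer passed (adjusted p = 0.0626) and Gfra4 from E14 to E16 did (adjusted p = 0.0448). With side as a factor, Gfra4 from E13 to E14 turned from 0.04 to -0.01. With the embryo as a replicate block, an alternative added after seeing the data, the right to left differences turned for Ret (-0.17), Nrtn (0.19), Artn (-0.04) and Gfra1 (0.14), none past the test before or after, and 0 genes were called. In the estimated counts 4889 of 13447 genes changed from E13 to E16, against 7887 of 19101 in the counts, and fewer genes were tested there. The cause of the other differences was not tested. With each tooth left out, genes changed numbered 3077 to 5855 from E13 to E14, 4836 to 6605 from E14 to E16 and 7227 to 9366 from E13 to E16, and, in the estimated counts, 3028 to 4691 from E13 to E15 and 671 to 1382 from E15 to E16. The highest of each was the fit without E16 tooth 1, against 3767 and 851 with it for the first and the last. Directions turned, within values that did not pass the test, for Gfra1 from E13 to E14 (-0.18 to 0.17), Gfra4 from E13 to E14 (-0.01 to 0.09), Artn from E13 to E16 (-0.06 to 0.09) and Gfra3 from E15 to E16 (-0.30 to 0.39). The pathway list, whose alternatives were chosen after seeing the data, kept its total of calls within 1.5 times in the alternatives other than leaving out a tooth, but from E14 to E16 the genes that rose went from 8 to 5 with the teeth of 1 embryo summed. No paired analysis was possible between stages because their embryos are different animals.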
